A study of Mus musculus with 8 samples.

Results

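Egr1, Egr2, Egr3, Klf2, Klf4, Klf6, Myc, Max and Mxd1 were followed across mouse bone-marrow derived macrophages in 3 states. These 9 transcription factors were picked by name, and all 9 had a row of their own among the 20258 named rows of the deposited expression table. The cells were cultured out of C57BL/6 marrow and then given lipopolysaccharide and interferon gamma together, here LPS plus IFNg (3 libraries), the cytokine IL4 (3 libraries) or no stimulus (2 libraries), each for 24 h. No group carried a further allele or agent, and doses, age and sex are not given in the labels. LPS plus IFNg is a standard way to activate macrophages classically, and IL4 to activate them alternatively. Each library read the 3' ends of polyadenylated RNA, and the deposited values are log2 levels after quantile normalisation, in which 1 unit is a doubling. The labels do not tie replicates to separate mice or cultures, so p-values measure the spread between these libraries, which may be technical.

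The 3 families work differently. Egr factors are zinc finger proteins whose genes are switched on within minutes of a signal reaching the serum response factor at their promoters, and Nab1 and Nab2 bind and restrain them. Klf factors are zinc finger proteins that bind GC-rich and CACCC-type sites; Klf2 keeps endothelial cells and lymphocytes quiescent and restrains macrophage activation, Klf4 acts with STAT6 in the IL4 response of mouse macrophages, and Klf6 has been described as a promoter of inflammatory genes in them. Myc drives ribosome production, metabolism and growth as a dimer with Max, while Mxd1 competes for Max and recruits Sin3 corepressors to the same E-box sites, typically as cells leave the cycle. Egr2 and Myc have both been described as markers of alternative activation in mouse macrophages.

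All 8 macrophage markers checked, among them Emr1, Csf1r and Itgam, were above 0 in every group, and their summed linear level was 12929 to 13778 with LPS plus IFNg, 9384 to 14025 with IL4 and 19677 to 20763 without stimulus. Tek and Cldn5, endothelial markers, were at 0 in all 8 libraries, and Cdh5 and Kdr reached a log2 level of 5.48 at most, which bears on Klf2 and Klf4, since endothelial cells use both. The summed linear level of 5 neutrophil markers was 196 to 283 with LPS plus IFNg, 841 to 1467 with IL4 and 1845 to 2112 without stimulus. That of 4 fibroblast markers was 1169 to 2252 with LPS plus IFNg, 1103 to 1652 with IL4 and 2252 to 3020 without stimulus. The part of these cells in the differences below was not tested, and in bulk RNA fewer cells of a type and less RNA per cell cannot be told apart. Depth is not given with such values. Of the 13615 genes tested, 2964 to 3568 were listed at 0 in the stimulated libraries and 1577 and 2588 in the unstimulated ones.

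Among the Myc network genes, Myc and Mxd1 moved in opposite directions while Max, their common partner, did not pass in any comparison. Myc, the growth-promoting member, was at 5.54, 4.40 and 5.01 in the LPS plus IFNg libraries, at 10.05, 10.18 and 9.19 in the IL4 libraries, and at 7.52 and 8.57 in the unstimulated ones. The 3 groups did not overlap, with LPS plus IFNg lowest and IL4 highest. The means were 4.98 ± 0.57 with LPS plus IFNg (SD, n = 3), 9.81 ± 0.54 with IL4 (SD, n = 3) and 8.04 ± 0.74 without stimulus (SD, n = 2). Against no stimulus, Myc fell by 3.06 on the log2 scale with LPS plus IFNg (SE 0.49, limma adjusted p = 0.0105), or 8.33-fold. Without unstimulated replicate 2 that call was lost (-2.53, adjusted p = 0.107). LPS plus IFNg against IL4 gave a log2 difference of -4.82 (SE 0.44, adjusted p = 0.000754), a 28.3-fold lower level. With IL4 against no stimulus the log2 difference was 1.77, 95% interval 0.62 to 2.91, and it did not pass (adjusted p = 0.178), although the libraries did not overlap.

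Mxd1, the antagonist, was at 9.31, 9.40 and 9.32 with LPS plus IFNg, at 3.90, 3.97 and 4.68 with IL4, and at 5.51 and 5.85 without stimulus. Here LPS plus IFNg was the highest group and IL4 the lowest, again with no overlap. Mxd1 rose by 3.66 with LPS plus IFNg against no stimulus (SE 0.35, limma adjusted p = 0.00179), or 12.7-fold. The log2 difference between LPS plus IFNg and IL4 was 5.16 (SE 0.31, adjusted p = 0.000169), or 35.7-fold. With IL4 against no stimulus it was -1.50 (95% interval -2.31 to -0.68, adjusted p = 0.114). The 3 LPS plus IFNg libraries spread by an SD of 0.05. Both comparisons of Mxd1 that passed did so under all 14 alternative settings.

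Max was at 8.13, 7.75 and 8.40 with LPS plus IFNg, at 7.73, 7.86 and 8.26 with IL4, and at 7.98 and 9.09 without stimulus, and all 3 groups overlapped. Its log2 differences were -0.44 for LPS plus IFNg and -0.59 for IL4 against no stimulus, and 0.15 between LPS plus IFNg and IL4 (95% interval -0.63 to 0.93). The 95% intervals against no stimulus were -1.31 to 0.43 and -1.46 to 0.29.

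The balance of Myc and Mxd1 within each library is unchanged by 1 scaling factor for the whole library. Quantile normalisation is not such a factor, and its part in this balance was not tested. Reads of 3' ends do not scale with transcript length. In log2 levels, Myc less Mxd1 was -3.77, -5.0 and -4.31 with LPS plus IFNg, 6.15, 6.21 and 4.51 with IL4, and 2.01 and 2.71 without stimulus. Its mean was -4.36 ± 0.62 (SD, n = 3) with LPS plus IFNg, 5.62 ± 0.97 (SD, n = 3) with IL4 and 2.36 ± 0.50 (SD, n = 2) without stimulus. The sign was negative in every LPS plus IFNg library and positive in every other library. This difference was set up from genes whose values were known and is given as a description, with no test.

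**Figure D1:**
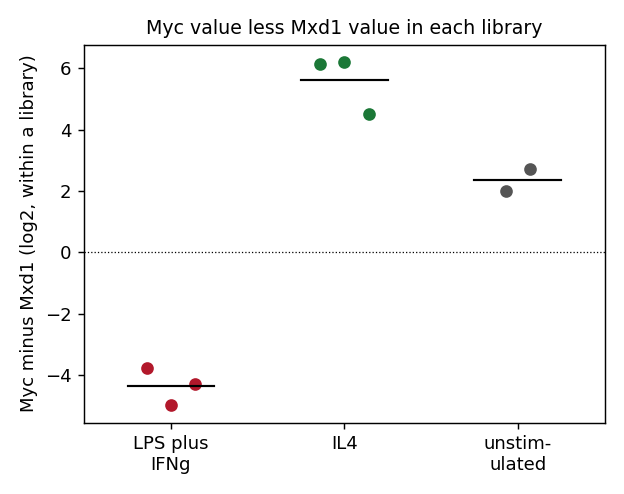
Myc less Mxd1 in log2 units within each of the 8 libraries, with points for libraries and bars for group means. The 3 LPS plus IFNg libraries lie between -5.0 and -3.77, below 0, and the IL4 and unstimulated libraries lie between 2.01 and 6.21.

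The promoter window of Mxd1 is shown because this gene had the lowest adjusted p of the 9 in both comparisons of LPS plus IFNg. RefSeq windows of the GRCm38.p6 build were matched by symbol for 6 of the 9 genes, and the 250 bases before the annotated start were searched on both strands for fixed letters. Mxd1 held the GC box GGGCGG 6 times, of which the last pair overlap, and none of the other motifs searched. Of the 32851 windows in the table, 32.7% hold a GC box, a share not matched for base composition. The Mxd1 window is 78.4% G or C. Capitals mark the GC boxes in the window at chr6:86669160-86669409, minus strand.
Mxd1: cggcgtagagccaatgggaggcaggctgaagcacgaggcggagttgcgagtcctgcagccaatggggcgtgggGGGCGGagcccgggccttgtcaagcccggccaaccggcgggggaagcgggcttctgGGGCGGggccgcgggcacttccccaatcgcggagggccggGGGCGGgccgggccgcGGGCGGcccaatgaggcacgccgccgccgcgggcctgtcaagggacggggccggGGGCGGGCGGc

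Of the Klf factors, Klf4 rose with both stimuli and Klf6 with LPS plus IFNg, while Klf2 did not pass in any comparison. Klf4 was at 10.35, 10.56 and 10.04 in the LPS plus IFNg libraries, at 10.37, 9.51 and 10.73 in the IL4 libraries, and at 7.55 and 7.24 in the unstimulated ones. Every stimulated library stood above both unstimulated ones, and the stimulated groups overlapped each other. Its log2 change was 2.92 with LPS plus IFNg (SE 0.36, limma adjusted p = 0.00437), 7.59-fold, and 2.81 with IL4 (SE 0.36, adjusted p = 0.0176), 7.0-fold. Both comparisons share the 2 unstimulated libraries. The direct difference between LPS plus IFNg and IL4 was 0.12, with a 95% interval of -0.65 to 0.88. The IL4 call was lost without IL4 replicate 1 (adjusted p = 0.0534), unstimulated replicate 1 (0.0618) or unstimulated replicate 2 (0.108), and the LPS plus IFNg call without unstimulated replicate 2 (0.0560).

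Klf6 was at 13.39, 13.34 and 12.95 with LPS plus IFNg, at 11.57, 11.70 and 11.77 with IL4, and at 12.16 and 11.84 without stimulus. The LPS plus IFNg libraries were the highest, and the IL4 libraries lay just below the unstimulated ones. Klf6 rose by 1.23 with LPS plus IFNg against no stimulus (SE 0.23, limma adjusted p = 0.0183), 2.34-fold, and was 2.92-fold higher than with IL4 (log2 difference 1.55, SE 0.20, adjusted p = 0.00313). The comparison with IL4 held under all 14 alternatives. That with no stimulus was lost without LPS plus IFNg replicate 1 (0.0501), LPS plus IFNg replicate 2 (0.0632) or unstimulated replicate 2 (0.103). With IL4 against no stimulus the log2 difference of Klf6 was -0.32 (95% interval -0.85 to 0.21).

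Klf2 was at 7.82, 8.42 and 8.46 with LPS plus IFNg, at 7.68, 8.87 and 7.82 with IL4, and at 8.42 and 8.79 without stimulus, with the groups overlapping. The 95% intervals of its log2 differences from no stimulus were -1.32 to 0.56 for LPS plus IFNg and -1.43 to 0.45 for IL4, and that between LPS plus IFNg and IL4 was -0.73 to 0.95.

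The windows of Klf4 and Klf6 are shown because these are the Klf genes that rose, and capitals mark every match of the searched motifs in them. Klf4 held the EGR site GCGGGGGCG, which overlaps a GC box, once, the E-box CACGTG once and GC boxes 4 times. Klf6 held an E-box and a GC box. Klf2 also held the EGR site, once. Of all windows, 2.57% held GCGGGGGCG and 6.02% held CACGTG. These shares were not matched for base composition, and the Klf4 window is 74% G or C. The other EGR site searched, GCGTGGGCG (0.536% of windows), the CACCC box CCACACCC (3.20%) and the STAT letters TTCNNNGAA (7.02%), or the same spaced 1 base wider (5.85%), were in no window of the 6 genes. The Klf4 window is chr4:55532476-55532725, minus strand, and the Klf6 window chr13:5861239-5861488, plus strand, both GRCm38.p6.
Klf4: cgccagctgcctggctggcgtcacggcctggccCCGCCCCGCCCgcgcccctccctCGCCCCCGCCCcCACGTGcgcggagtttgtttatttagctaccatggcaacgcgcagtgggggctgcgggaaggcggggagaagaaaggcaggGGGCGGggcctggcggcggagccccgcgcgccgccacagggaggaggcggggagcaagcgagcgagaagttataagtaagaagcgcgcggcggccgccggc
Klf6: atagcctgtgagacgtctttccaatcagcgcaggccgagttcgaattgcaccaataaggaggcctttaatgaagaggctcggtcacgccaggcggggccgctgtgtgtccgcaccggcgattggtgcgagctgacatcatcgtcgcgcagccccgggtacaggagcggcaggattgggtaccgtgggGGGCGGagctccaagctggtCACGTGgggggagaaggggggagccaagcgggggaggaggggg

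Among the Egr genes, Egr2 fell with LPS plus IFNg when set against IL4, and Egr1 and Egr3 did not pass in any comparison. Egr2, also known for its role in myelination, was at 5.41, 5.57 and 2.66 with LPS plus IFNg, at 9.71, 8.64 and 9.75 with IL4, and at 7.69 and 7.47 without stimulus. The groups did not overlap, in the same order as for Myc: LPS plus IFNg lowest, no stimulus between and IL4 highest. The log2 difference between LPS plus IFNg and IL4 was -4.82 (SE 0.77, limma adjusted p = 0.00722), a 28.2-fold lower level, and it passed under all 14 alternatives. Against no stimulus the differences were -3.03 with LPS plus IFNg (95% interval -5.06 to -1.0, adjusted p = 0.0880) and 1.79 with IL4 (-0.24 to 3.82, adjusted p = 0.477). LPS plus IFNg replicate 3, at 2.66, lay well under the other two, and without it the difference from no stimulus was smaller, -2.09, yet passed (adjusted p = 0.0424).

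Egr1, the family's best known immediate early gene, was at 4.96, 2.92 and 5.27 with LPS plus IFNg, at 5.07, 7.22 and 6.88 with IL4, and at 5.32 and 3.86 without stimulus. All 3 groups overlapped, and the log2 difference between LPS plus IFNg and IL4 was -2.01 (95% interval -4.11 to 0.09, limma adjusted p = 0.214). Egr3 was listed at 0 in IL4 replicate 1 and LPS plus IFNg replicate 1; its other values were 4.97 and 4.94 with LPS plus IFNg, 5.19 and 4.50 with IL4, and 3.90 and 3.57 without stimulus. The 95% intervals of its 3 differences spanned more than 8 log2 units, so a change in Egr3 was not detectable here.

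Egr2 has 5 annotated start windows in the table, of which 4 hold a CArG box, the serum response factor's site, 3 of them the same one. The most upstream window holds none, but 4 GC boxes and an E-box. The window shown, at chr10:67537316-67537565, plus strand, GRCm38.p6, was chosen among the 5 after the motifs were seen. Like the window at chr10:67537619-67537868, it overlaps 2 transcripts annotated in GENCODE vM21 but no exon. Its CArG box is not the one that 3 windows share. Capitals mark its CArG box and its GC box; 1.47% of all windows in the table hold a CArG box.
Egr2: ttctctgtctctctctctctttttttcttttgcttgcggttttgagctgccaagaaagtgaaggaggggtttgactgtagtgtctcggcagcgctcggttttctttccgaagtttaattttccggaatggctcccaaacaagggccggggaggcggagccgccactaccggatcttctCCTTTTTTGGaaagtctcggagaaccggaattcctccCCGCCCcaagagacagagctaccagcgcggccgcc

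**Figure D2:**
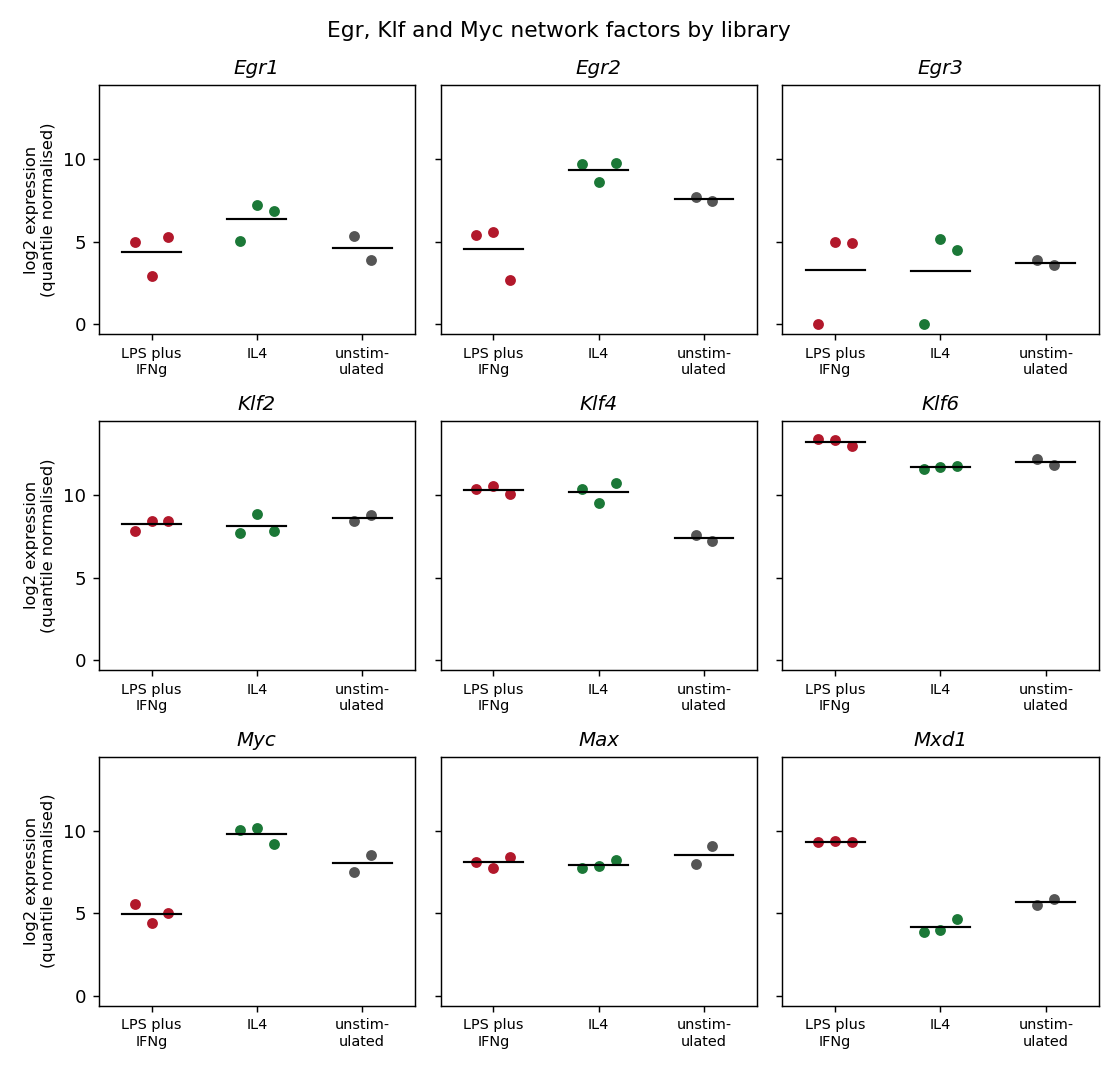
Quantile-normalised log2 expression of the 9 genes, with a point for each library and a bar for each group mean. Myc and Egr2 are lowest and Mxd1 highest with LPS plus IFNg, Klf4 is raised with both stimuli, and Klf2 and Max stay within overlapping ranges.

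Counted together, 1 of the 9 genes passed with IL4 against no stimulus (Klf4, higher), where 1.31% of all tested genes were called, 0.514% higher and 0.793% lower. With LPS plus IFNg against no stimulus 4 passed, Klf4, Klf6 and Mxd1 higher and Myc lower, against 7.97% of all tested genes, 3.72% higher and 4.25% lower. Between LPS plus IFNg and IL4 also 4 passed, Klf6 and Mxd1 higher and Egr2 and Myc lower, against 12.9% of all tested genes, 5.91% higher and 6.96% lower. Libraries did not overlap for 5, 5 and 4 of the 9 genes in these comparisons, against 26.5%, 36.7% and 27.1% of all tested genes. The genes were chosen with earlier results of these data known, so their counts are descriptive. When libraries were scaled to equal means of 11 housekeeping genes, the median of all genes between LPS plus IFNg and no stimulus went to 0.71 in place of -0.04, and 1259 of 1511 called genes were higher in place of 506 of 1085. Between LPS plus IFNg and IL4 that median went to 0.67 in place of 0.00, and 1779 of 2224 called genes were higher in place of 804 of 1752. The same genes of the 9 passed in the same directions with that scaling. The differences between LPS plus IFNg and no stimulus that did not pass turned to positive values for Klf2 (0.38), Max (0.32), Egr1 (0.55) and Egr3 (0.32). Before scaling, 2 of the 11 housekeeping genes were called lower with LPS plus IFNg than without stimulus, and 4 of 11 than with IL4. In both comparisons 10 of the 11 differences were negative. Whether these genes are a steady reference here was not tested.

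**Figure D3:**
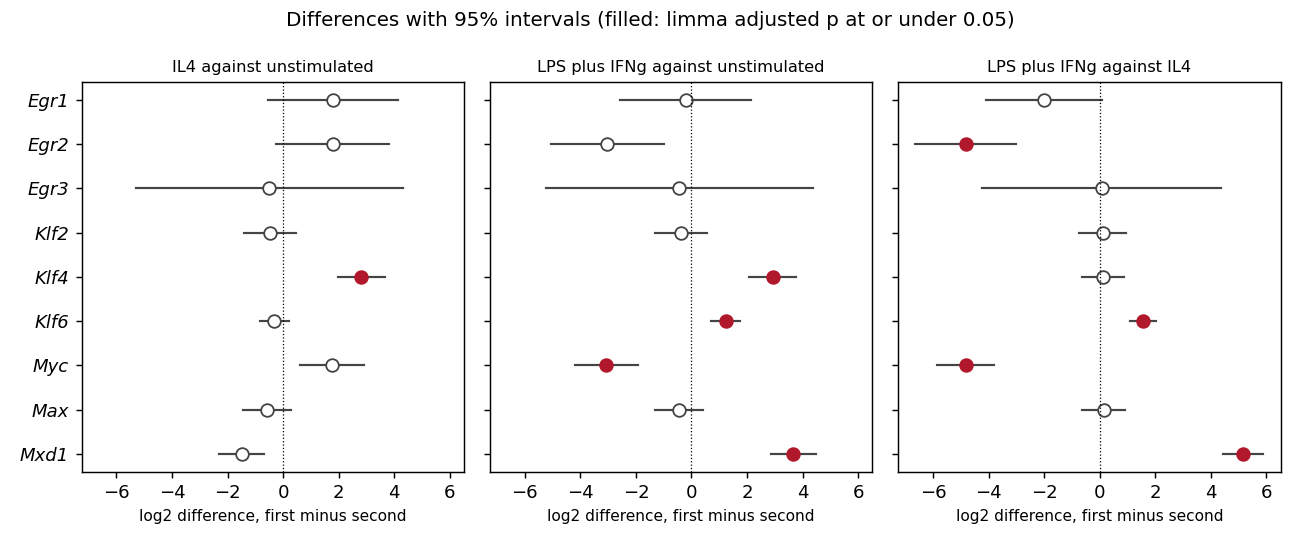
Log2 differences of the 9 genes in the 3 comparisons, with 95% intervals from limma; filled points passed at an adjusted p of 0.05. Klf4 is filled in both comparisons with no stimulus and lies at 0.12 between the stimuli, where Myc and Egr2 lie at -4.82 and Mxd1 at 5.16.

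The genes around Myc were read from lists of its network, cofactors and targets. These lists and those of the Egr and Klf genes below were chosen with earlier results of these data known, so their counts are descriptive. The shares of all tested genes beside them were not matched to the lists for expression level. Of 36 genes described as induced by Myc, 12 fell (33.3%) and 1 rose (2.78%) with LPS plus IFNg against IL4. Of all tested genes 6.96% fell and 5.91% rose. The list's median was -1.32, beside 0.00 for all genes. Without IL4 replicate 1, 7 of the 36 fell. With housekeeping scaling 5 fell and 3 rose, with a median of -0.65, where that of all genes was 0.67. That scaling adds the same amount to every gene's difference in a comparison, here and in the lists below. The transferrin receptor Tfrc was at 7.57 ± 0.59 with LPS plus IFNg and 11.26 ± 0.07 with IL4 (SD, n = 3 each), a log2 difference of -3.68 (limma adjusted p = 0.000511). Nme1, a nucleoside diphosphate kinase, and Rrs1, a ribosome assembly factor, had differences of -2.60 and -2.56. The nucleolar proteins Nop56, Nop58 and Fbl, also of ribosome production, had -2.34, -2.23 and -2.18, and were named after their values were seen. Ccnd2, cyclin D2, went the other way, at 10.04 ± 0.29 with LPS plus IFNg and 7.11 ± 0.53 with IL4 (difference 2.93, adjusted p = 0.00589). Tfrc, Nme1, Rrs1 and Ccnd2 passed under all 14 alternatives. The amino acid transporter subunit Slc7a5 had the largest difference that did not pass (-2.65, adjusted p = 0.150).

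Against no stimulus, the same 36 genes had a median of -0.71 with LPS plus IFNg. With housekeeping scaling it was 0.05, where that of all genes was 0.71. Of the 36, 2 were lower (Tfrc -2.54, Nme1 -1.66) and 2 higher (Ccnd2 2.44 and the lactate dehydrogenase subunit Ldha 0.75). Each count is 5.56% of the list, near the shares of all tested genes, 4.25% lower and 3.72% higher. When a library was left out, 0 to 3 were lower and 0 to 2 higher. Of 14 alternatives, the Tfrc call was lost in 1, that of Ccnd2 in 6, that of Nme1 in 8 and that of Ldha in 11. Each was lost without unstimulated replicate 2, which leaves 1 unstimulated library. With IL4 their median was 0.80, beside -0.01 for all genes, and 31 of 36 differences were positive, but none passed; Polr1b was the largest at 2.17 (adjusted p = 0.625). Of 6 genes described as repressed by Myc, 2 rose and 2 fell with LPS plus IFNg against no stimulus. Each count is 33.3% of the list, beside 3.72% of all tested genes higher and 4.25% lower. The median over the list was -0.81 (-0.05 with housekeeping scaling). The cell cycle inhibitor Cdkn1a (p21) rose by 2.34 (limma adjusted p = 0.0150), and Cdkn2b (p15) was at 3.12 ± 0.51 (SD, n = 3) against 0 in both unstimulated libraries. Cdkn2c (p18) and the stress gene Gadd45a fell, with log2 differences of -5.22 and -2.72 (adjusted p = 0.0360 and 0.0216). The calls of Cdkn1a, Cdkn2c and Gadd45a were lost in 4, 9 and 6 of 14 alternatives, with adjusted p up to 0.144, 0.216 and 0.185. Each was lost without unstimulated replicate 1, unstimulated replicate 2 or LPS plus IFNg replicate 2. Cdkn2c was also lost without any 1 of the IL4 libraries, and Gadd45a without LPS plus IFNg replicate 3 or with housekeeping scaling. Cdkn2b, which was tested in 13 alternatives, lost its call in 2, with only the 2 groups compared and with the replicate block. Against IL4, Cdkn1a (difference 1.59, limma adjusted p = 0.0306) and Cdkn2b, listed at 0 in every IL4 library, were higher with LPS plus IFNg. These 2 were 33.3% of the list, beside 5.91% of all tested genes higher. The Cdkn1a call was lost in 8 of 14 alternatives and the Cdkn2b call in 1 of 13. The list's median was 0.94 (1.60 with housekeeping scaling, where 3 rose). With IL4 against no stimulus none of the 6 passed, their median was -1.44, and Gadd45a had -2.88 (adjusted p = 0.0542).

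Of the 9 other network factors tested, Mxd4, a sister of Mxd1, fell with LPS plus IFNg. A count of 1 of 9 (11.1%) is near the shares called among all tested genes, 12.9% against IL4 and 7.97% against no stimulus. It was at 5.22 ± 0.98 with LPS plus IFNg (SD, n = 3), 7.93 ± 0.32 with IL4 (SD, n = 3) and 8.95 ± 0.04 without stimulus (SD, n = 2). Its log2 differences were -2.71 against IL4 (limma adjusted p = 0.0108) and -3.74 against no stimulus (adjusted p = 0.00710), the second lost without unstimulated replicate 1 (0.0627) or 2 (0.0754). Mxd1 and Mxd4 thus changed in opposite directions with LPS plus IFNg. None of the other network factors and none of 11 cofactors and turnover genes, such as Sin3a, Trrap and Fbxw7, passed in any of the 3 comparisons. With housekeeping scaling 1 network factor was higher with LPS plus IFNg than without stimulus and 1 cofactor higher than with IL4. A network factor was also higher with LPS plus IFNg than with IL4 without IL4 replicate 2 or LPS plus IFNg replicate 3, and than without stimulus when LPS plus IFNg replicate 3 or unstimulated replicate 2 was left out. The medians of both lists, in the order LPS plus IFNg against IL4, LPS plus IFNg against no stimulus and IL4 against no stimulus, were 0.08, -0.15 and -0.23 for the network factors and 0.05, 0.08 and 0.53 for the cofactors. With housekeeping scaling they were 0.75, 0.61 and -0.14 for the network factors and 0.72, 0.84 and 0.62 for the cofactors. Those of all genes were then 0.67, 0.71 and 0.07, and the second of the network factors had its sign turned. The histone acetyltransferase gene Kat2a had the largest cofactor differences from no stimulus, 1.74 with IL4 and 2.15 with LPS plus IFNg (adjusted p = 0.421 and 0.161).

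Of 11 tested genes described as Egr targets, 6 fell (54.5%) and 2 rose (18.2%) with LPS plus IFNg against IL4, where 6.96% of all tested genes fell and 5.91% rose. The list's median was -1.27, beside 0.00 for all genes, and -0.60 with housekeeping scaling, where that of all genes was 0.67. F3, tissue factor, stood at 0 in each of the LPS plus IFNg libraries, against 7.05 ± 0.81 with IL4 (SD, n = 3). Fibronectin Fn1 and the growth factor Pdgfa had log2 differences of -3.33 and -3.65 (limma adjusted p = 0.000969 and 0.0119). The adhesion ligand Icam1 had 5.85 (adjusted p = 0.0146), from 8.63 ± 0.33 with LPS plus IFNg and a low, scattered 2.79 ± 2.47 with IL4 (SD, n = 3 each). The Pdgfa call was lost without unstimulated replicate 2 (0.0534), and that of Icam1 without LPS plus IFNg replicate 3 (0.0535) or unstimulated replicate 2 (0.0591). Nab2, the Egr corepressor, is in this list and in that of Egr partners, where it was the only gene of 7 to pass in any of the 3 comparisons, at 8.94 ± 0.10 with LPS plus IFNg and 10.21 ± 0.36 with IL4 (SD, n = 3 each; difference -1.27, adjusted p = 0.0247); 7 of 14 alternatives lost it, housekeeping scaling among them (0.149). Among the partners, 1 of 7 (14.3%) between LPS plus IFNg and IL4 is near the 12.9% called among all tested genes. With IL4 against no stimulus, 1 of the 11 targets rose (9.09%, beside 0.514% of all tested genes). It was the ubiquitin ligase Cblb (1.38, limma adjusted p = 0.0272), a call that 10 of 14 alternatives lost. The median of the 11 was 1.25, beside -0.01 for all genes. With LPS plus IFNg against no stimulus 3 fell. F3 was at 0 against 4.31 ± 0.43 (SD, n = 2). Cblb had a difference of -1.50 (limma adjusted p = 0.00593) and the hyaluronan receptor Cd44 of -1.06 (adjusted p = 0.0437). The F3 call was lost with the replicate block (0.0869) and without unstimulated replicate 1. The Cd44 call was lost in 11 of 14 alternatives. Housekeeping scaling lost the Cblb call (0.0716) and left 1 of the 3. Those 3 were 27.3% of the list, beside 4.25% of all tested genes lower. The median was -1.06, beside -0.04 for all genes, and -0.30 with housekeeping scaling.

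Of 10 tested regulators and targets of Klf2 and Klf4, none passed with IL4, the largest difference being that of the sphingosine-1-phosphate receptor S1pr1 (-2.21, limma adjusted p = 0.166), and their median was -0.66. With LPS plus IFNg against no stimulus 3 fell and 2 rose, with a median of -0.42 (0.33 with housekeeping scaling). Those counts are 30% and 20% of the list, beside 4.25% and 3.72% of all tested genes. Thrombomodulin, Thbd, stood at 0 in each of the LPS plus IFNg libraries, against 4.44 ± 1.33 with IL4 (SD, n = 3) and 6.18 ± 0.46 without stimulus (SD, n = 2). Mef2c, a MADS-box factor upstream of Klf2 in endothelium, fell, with log2 differences of -2.87 against no stimulus (adjusted p = 0.00859) and -3.28 against IL4 (adjusted p = 0.00222), and S1pr1 fell by 2.76 against no stimulus (adjusted p = 0.0326). Of 14 alternatives, the calls of Thbd and Mef2c against no stimulus were each lost in 2, and that of S1pr1 in 7. For S1pr1 these included housekeeping scaling, the replicate block and leaving out any 1 of the LPS plus IFNg libraries. All 3 calls were lost without unstimulated replicate 1, which leaves 1 unstimulated library. The risers were Cdkn1a, given above, and the integrin subunit Itgb7, at 7.25 ± 0.04 with LPS plus IFNg (SD, n = 3) against 4.96 ± 0.59 without stimulus (SD, n = 2). Neither rise passed without LPS plus IFNg replicate 2, unstimulated replicate 1 or unstimulated replicate 2. Against IL4, Mef2c and Thbd fell and Cdkn1a and Itgb7 rose, with a median of 0.24 (0.91 with housekeeping scaling, where 3 rose). Falls and rises were each 20% of the list, beside 6.96% and 5.91% of all tested genes. The falls of Mef2c and Thbd there held under all 14 alternatives, while neither rise passed without IL4 replicate 1 or without any 1 of the LPS plus IFNg libraries (adjusted p up to 0.0913 for Cdkn1a and 0.108 for Itgb7). Of 18 other Klf and Sp factors tested, Klf9 and Klf7 were lower with LPS plus IFNg than with IL4, by log2 differences of -2.66 and -1.76 (adjusted p = 0.00337 and 0.0123), the second lost with housekeeping scaling (0.0648), and none passed against no stimulus. A count of 2 of 18 (11.1%) is near the share called among all tested genes, 12.9%. The list's median was 0.04 against IL4, -0.12 for LPS plus IFNg against no stimulus and 0.02 for IL4 against no stimulus. With housekeeping scaling the list's medians for LPS plus IFNg were 0.71 against IL4 and 0.64 against no stimulus, the second with its sign turned. Those of all genes were then 0.67 and 0.71. With that scaling 1 gene of the list fell and 2 rose against IL4, and 1 rose against no stimulus. With low genes left out, 2 fell with LPS plus IFNg and 1 rose with IL4 against no stimulus, and 1 fell without any 1 of the LPS plus IFNg libraries. Klf11 came nearest in size, at 1.96 ± 2.31 with LPS plus IFNg (SD, n = 3) against 6.45 ± 0.19 without stimulus (SD, n = 2; adjusted p = 0.111).

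**Figure D4:**
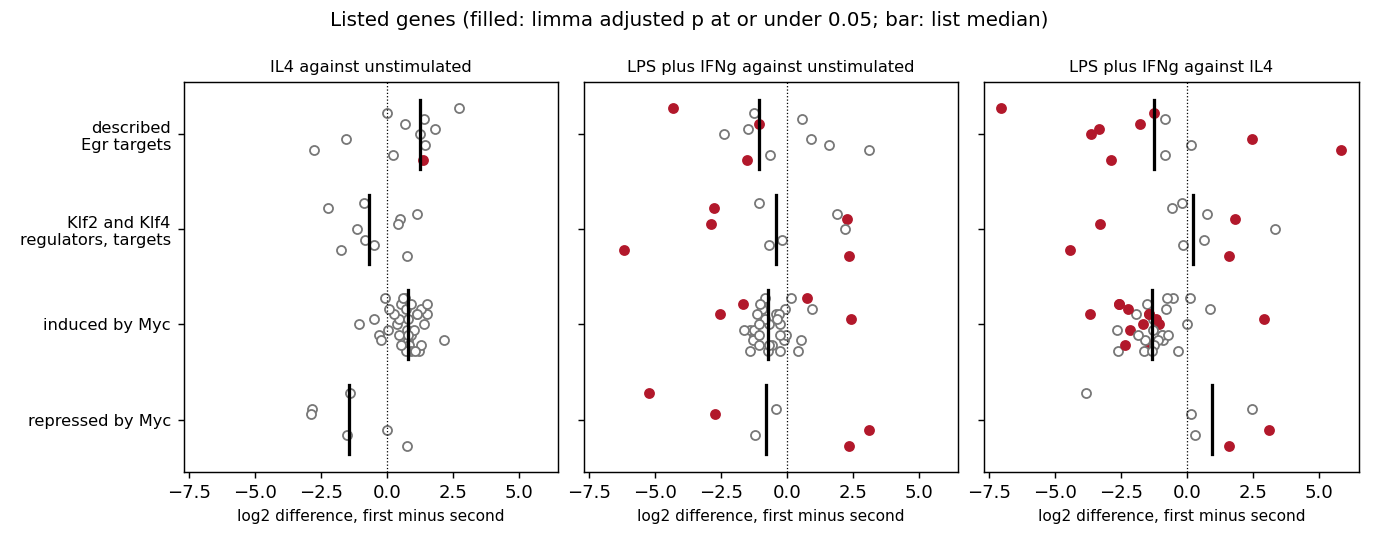
Log2 differences of genes on 4 lists in the 3 comparisons; filled points passed at a limma adjusted p of 0.05 and bars are list medians. Genes listed at 0 in a whole group are drawn at their fitted difference. For genes induced by Myc the median is 0.80 with IL4 against no stimulus and -1.32 between LPS plus IFNg and IL4.

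Likeness of pattern was measured as the mean absolute log2 difference between profiles over the 8 libraries, each centred on its own mean, among 7282 other genes with a mean of at least 5. The genes nearest to Egr2 were Olfm1 (0.37), Cd300ld (0.57) and Nes (0.59). Those nearest to Myc were Ptrf (0.48), Atp6v0a1 (0.56) and Fam198b (0.57). Klf4 lay nearest to Mafk (0.32), which encodes a small Maf factor, the metallothionein gene Mt2 (0.38) and the kinase gene Jak2 (0.39). Klf6 lay nearest to Slc26a2 (0.14), Nrbp1 (0.14) and Mapk9 (0.16). Mxd1 lay nearest to Parp14 (0.20), Procr (0.26) and Stat2 (0.37), of which Parp14 and Stat2 belong to the interferon response. Among the 9 genes themselves, Klf2 and Max were the closest pair (0.43), and Egr2 and Myc lay 0.91 apart. Klf2 and Max passed in no comparison, and profiles that vary little lie close by this measure.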

How the data were processed

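Expression was measured in 8 libraries of mouse macrophages. Per the labels' protocols, oligo-dT beads took up the RNA, barcoded oligo-dT primed the cDNA, samples were pooled by Actb qPCR and strand-specific 3' end libraries made; no molecular identifiers are described. TopHat and mm9 are named in the submitters' processing notes; the sources used here give neither versions nor the counting step. The authors deposited log2 values, quantile normalised per the file's name, which can hide differences in total RNA and hold no depth; how zero counts were treated is likewise not given. Columns were matched to samples by barcode. Of 20259 rows, 1 had no symbol and 6643 had 1 constant value; 13615 were tested.

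All 8 libraries entered a single fit in limma 3.58.1 (R 4.3.3), which gave each group its mean and used an intensity trend. Tests were two-sided, with Benjamini and Hochberg adjustment over all tested genes and a threshold of 0.05. It was tested on simulated data. The named genes are the 9 factors, up to 4 list genes past the threshold with the largest change and 1 not past it per list and comparison, and the 3 nearest profiles. The 9 genes and the lists were chosen with earlier results of these data known. Alternatives were no trend, only the 2 groups compared, dropping genes under the 0.25 quantile of means, a pseudocount of 1, housekeeping scaling, a block for replicate number, and leaving out each library; recomputing the lists under them was added later.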

Additional observations from a re-analysis of the deposited data

How the results depend on the processing

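Over 14 alternatives no difference that passed in any setting turned direction among the 9 genes or the named list genes, and the 4 calls between LPS plus IFNg and IL4 (Klf6, Mxd1, Egr2, Myc) were kept in every one. With IL4 against no stimulus, the Klf4 call was lost, leaving 0 of the 9 genes, with only the 2 groups compared (adjusted p = 0.103) and with a replicate block (0.122). With a library left out, 0 to 1 of the 9 passed in that comparison and 1 to 5 with LPS plus IFNg against no stimulus, where unstimulated replicate 2 left Mxd1 alone. The replicate block left 2 of 4 there, Klf4 and Mxd1. Klf6 also did not pass there without the trend (0.0520) or with only the 2 groups compared (0.0502), and Egr2 passed with low genes left out (0.0145). Causes were not tested.

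Among all genes, 178 passed with IL4 against no stimulus, 7 with only the 2 groups compared, 8 with the replicate block and 81 to 279 with a library left out. With LPS plus IFNg against no stimulus 1085 passed, 511 with the block and 650 to 1154 with a library left out. The deviations of same-numbered libraries had correlations of -0.08 to 0.07 across 7283 genes, so no shared deviation was seen. With so few libraries per group, these values cannot decide whether same-numbered samples came from the same mouse or culture. Quantile-normalised values give no depth, which limits statements on Egr1 and Egr3. Fits that leave 1 unstimulated library assume that it varies like the other groups.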
